A study of Panax japonicus with 15 samples.

Results

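Pericarp RNA of the R period was set against that of the G period in Panax japonicus, a ginseng relative grown as a medicinal herb. The series samples the fruit wall at 5 periods of fruit colour, lettered G, R, Y, B and P in the labels, and asks how transcript levels go along with the colour of the fruit. The compared libraries were 3 of the R period and 3 of the G period, 6 of the 15 in the series, and the 3 Y libraries were used to place the changed transcript clusters. All came from the fruit wall with the seed removed, and the labels give no treatment, strain or genotype that separates them. The labels describe the 3 libraries of a period as biological replicates but name no plant or day for any of them; p-values therefore cover only the variation among the libraries at hand. They neither spell out the letters nor order the periods in time, and the letters are kept unexplained here. The authors deposited TPM, a transcript level corrected for transcript length and scaled to the same total in each library. The features are numbered transcript clusters, and the table pairs them with no gene names. A transcript cluster belonged to the comparison if 3 or more of the 6 R and G libraries reached 1 TPM for it. This held for 78605 of the 462117 in the table, or 17.0%.

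As background, the colour of a fleshy fruit wall comes from chlorophyll, carotenoids and phenolic pigments such as anthocyanins. While a fruit colours, chlorophyll is typically broken down and carotenoids or anthocyanins accumulate, and the enzymes of these pathways are in part set by transcript level. Without gene names no transcript cluster could be assigned to these pathways here, and the comparison is described by direction, size and abundance.

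The number of reads behind a TPM value is unknown. The 78605 transcript clusters held 85.9% to 86.0% of TPM in the R libraries and 76.7% to 83.9% in the G libraries. The number of them above 0 ranged from 71069 to 72466 in the R libraries and from 64891 to 70692 in the G libraries. G replicate 1 had the lowest number and G replicate 3 the lowest share. The G libraries also varied more among themselves. For a transcript cluster with a mean of 10 to 100 TPM over the 6 libraries, the median SD of log2(TPM + 1) was 0.22 within R, 0.40 within G and 0.27 within Y (n = 3 each). From 1 to 10 TPM these medians were 0.45 within R, 0.62 within G and 0.43 within Y.

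Levels in R and G differed for 3171 of the 78605 transcript clusters, of which 1880 rose in R and 1291 fell (limma, Benjamini-Hochberg adjusted p under 0.05 over the 138664 features fitted, of which 3190 were called, or 2.3%). Within the 78605 the share called was 4.03% in either direction, 2.39% for a rise and 1.64% for a fall. A transcript cluster that rose had a median mean level of 14.8 TPM in R and 1.93 TPM in G, with a median difference of 2.02 on the log2(TPM + 1) scale. One that fell had a median mean level of 0.773 TPM in R and 11.2 TPM in G, with a median difference of -1.98. The differences ran, from the lower to the upper quartile, from 1.56 to 2.67 for those that rose and from -2.62 to -1.55 for those that fell. The median standard error of these differences was 0.36 for rises and 0.35 for falls. Of those that rose, 390 were listed at 0 in all 3 G libraries, and of those that fell, 343 were listed at 0 in all 3 R libraries. Differences of these depend on the pseudocount and are not fold changes.

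Part of these calls rests on transcript clusters that entered through a single period and so had to differ between the periods. At 1 TPM or more in all 3 R libraries and in no G library stood 3067, of which 622 were called, and the reverse held for 1710, of which 583 were called. At 1 TPM or more in all 6 libraries stood 32884, of which 1435 were called. Just inside the limit, 19447 transcript clusters reached 1 TPM in exactly 3 of the 6 libraries, with a median of 1.26 TPM over the 6. Just outside it, 36633 reached 1 TPM in exactly 2, with a median of 0.833 TPM, and 19 of these were called in the same fit and are not counted here.

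The preponderance of rises depended on how libraries were scaled. On the TPM as deposited 59.3% of the called transcript clusters rose. With median-ratio scaling 1531 rose and 1507 fell, so that 50.4% rose. That scaling moved the difference by a median of -0.13 over the 32884 transcript clusters that reached 1 TPM in each of the 6 libraries. Their median difference was 0.08 on the TPM as deposited and -0.04 after scaling. Of the 3171 calls, 2817 were also called with median-ratio scaling, all 2817 in the same direction. Leaving out 1 library moved the number called by over 1.5 times for all 3 R libraries and for G replicate 3. It was 1699, 1617 and 1818 without R replicates 1, 2 and 3, and 2007 without G replicate 3.

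**Figure D1:**
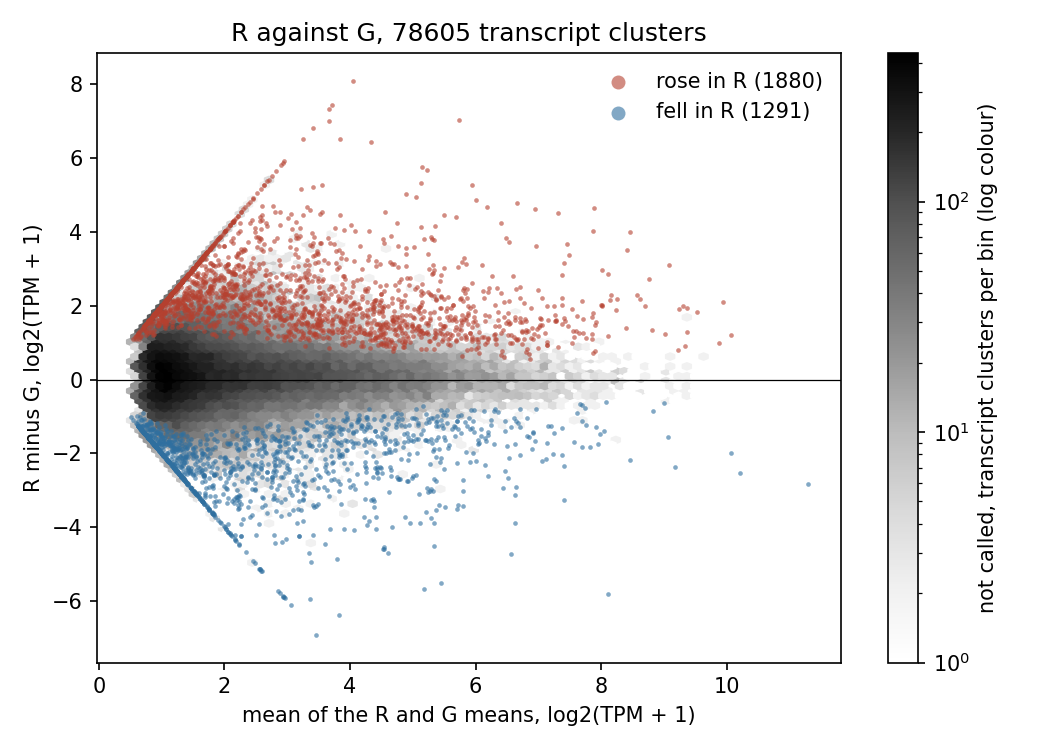
Difference between R and G (R minus G, log2(TPM + 1)) against the average of the R and G means on the same scale, for 78605 transcript clusters. Red points are the 1880 that rose in R, blue points the 1291 that fell, and grey bins count the others. The straight edges are transcript clusters listed at 0 in all libraries of the other period.

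Large differences were common without being called. R was higher by at least 1 on the log2 scale for 11262 transcript clusters, of which 1823 were called, or 16.2%. R was lower by at least 1 for 6652, of which 1254 were called, or 18.9%. At a size of at least 2, 956 of 2446 that were higher and 631 of 1279 that were lower were called. At a size of at least 4, the numbers were 103 of 156 and 60 of 81. The smallest called differences were 0.57 among rises and 0.61 among falls. All 3 R libraries lay above all 3 G libraries for 12870 transcript clusters, or 16.4%, and below them for 7757, or 9.87%. This separation held for 1880 of the 1880 that rose and for 1290 of the 1291 that fell, and the test itself favours it.

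Rises were most in excess among the most abundant transcript clusters. With a mean of at least 100 TPM over the 6 libraries, 149 rose and 66 fell among 1042 transcript clusters, and 20.6% were called. From 10 to 100 TPM, 733 rose and 438 fell among 14568, with 8.04% called. From 1 to 10 TPM, 959 rose and 693 fell among 57534, with 2.87% called. Under 1 TPM, 39 rose and 94 fell among 5461, with 2.44% called. All of these 133 had entered through a single period, which fixed their direction, as had 543 of the 959 rises and 458 of the 693 falls from 1 to 10 TPM. With median-ratio scaling the numbers were 132 rises and 89 falls at 100 TPM or more, 620 and 561 from 10 to 100 TPM, 752 and 755 from 1 to 10 TPM, and 27 and 102 under 1 TPM. At 100 TPM or more, 69.3% of the calls were rises as deposited and 59.7% after scaling. From 10 to 100 TPM these shares were 62.6% and 52.5%. Under 1 TPM they were 29.3% and 20.9%, from which nothing is read because of how these transcript clusters entered. The share called is not a measure of how often rare transcripts changed, because the log2(TPM + 1) scale compresses low values and their spread is wider.

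**Figure D2:**
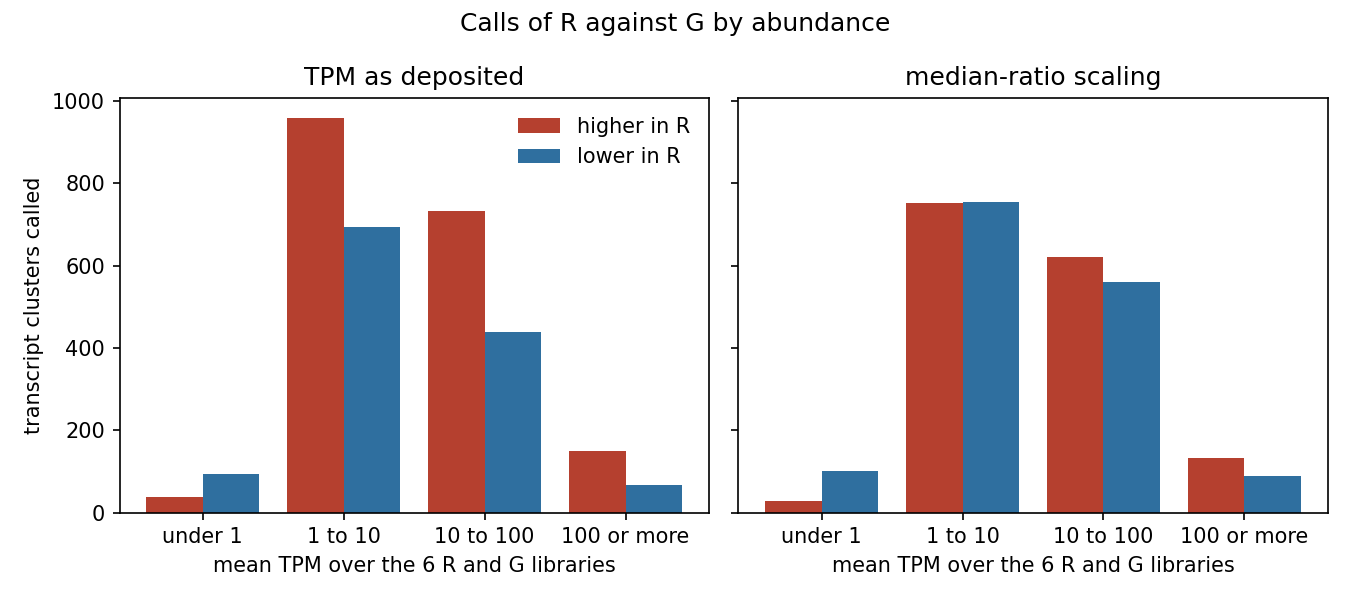
Number of transcript clusters called higher in R (red) and lower in R (blue) by mean TPM over the 6 R and G libraries, on the TPM as deposited (left) and with median-ratio scaling (right). The excess of rises at 1 to 10 TPM, 959 against 693, is gone after scaling, at 752 against 755.

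The changed transcript clusters made up a visible share of the RNA. Those that rose held 10.5%, 10.8% and 10.8% of TPM in R replicates 1, 2 and 3, against 3.08%, 2.76% and 2.33% in G replicates 1, 2 and 3. Those that fell held 1.40%, 1.40% and 1.36% of TPM in the R libraries and 6.61%, 6.30% and 5.47% in the G libraries. The Y libraries lay between on both, at 7.04%, 6.99% and 7.95% for those that rose and 2.24%, 2.24% and 2.35% for those that fell. These shares follow from how the transcript clusters were called in R and G, and carry no test; Y took no part in that contrast.

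With 3 libraries a side, the permutation test used for the share of RNA held by the most abundant transcripts could call no difference of any size. The 10 highest transcript clusters of each library held 1.77% ± 0.0886 of TPM in R and 2.66% ± 0.284 in G (SD, n = 3 each), and 1.99% ± 0.0426 in Y (SD, n = 3). All 3 R libraries lay below all 3 G libraries. The exact two-sided permutation test gave p = 0.1, the smallest that 3 against 3 allows, and 0.15 after Benjamini-Hochberg adjustment over the 6 library measures compared. For the 100 highest, the shares were 8.87% ± 0.109 in R and 9.64% ± 1.07 in G (SD, n = 3 each; exact permutation p = 0.4, adjusted 0.4), and the groups overlapped, with G replicate 3 at 8.44%, below all 3 R libraries. Of the 100 transcript clusters with the highest mean in R, 59 were also among the 100 highest in G. Of the 100 highest in R, 33 rose and 2 fell, and of the 100 highest in G, 11 fell and 3 rose. Ranking by the R mean favours rises and ranking by the G mean favours falls. Of the 1042 with a mean of at least 100 TPM over the 6 libraries, 149 rose and 66 fell.

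The most abundant transcript cluster that fell was also the highest of all in G. Cluster-64249.114148 stood at 1055, 1118 and 711 TPM in R replicates 1, 2 and 3, against 6920, 6517 and 6502 TPM in G replicates 1, 2 and 3. G averaged 6.92 times the R mean, and the absence of overlap between the periods was a condition for naming it. The difference was -2.82 ± 0.53 (SE) on the log2(TPM + 1) scale, with an adjusted p of 0.0122 (limma). The call was lost without R replicate 3, at an adjusted p of 0.0572 (limma). In Y it stood at 1438, 1577 and 1824 TPM, closer to R than to G in each library. Its Y minus G difference of -2.05 was not called, at an adjusted p of 0.1002 (limma). It ranked 1 in G, 32 in R and 8 in Y by mean TPM.

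Among those that rose, Cluster-64249.126115 had the highest mean. Its level was 1931, 2121 and 2021 TPM in R replicates 1, 2 and 3, against 749, 428 and 336 TPM in G replicates 1, 2 and 3. R averaged 4.01 times the G mean, and the absence of overlap between the periods was a condition for naming it. The difference was 2.09 ± 0.24 (SE) on the log2(TPM + 1) scale, with an adjusted p of 0.000305 (limma). In Y it stood at 1460, 1994 and 1695 TPM, next to R, and its Y minus G difference was 1.84 with an adjusted p of 0.00134 (limma). A fit on the 6 R and G libraries alone gave an adjusted p of 0.0717 (limma) for R against G.

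The largest differences belonged to transcript clusters listed at 0 in the other period. Cluster-64249.134555 stood at 259, 289 and 267 TPM in R replicates 1, 2 and 3 and was listed at 0 in the 3 G libraries (adjusted p 0.0104, limma). Its Y libraries split, with 0, 0 and 183 TPM in Y replicates 1, 2 and 3. A Y mean between R and G thus stood for no single Y library here. Cluster-64249.336547 was listed at 0 in the 3 R libraries and stood at 27.4, 222 and 275 TPM in G replicates 1, 2 and 3 (adjusted p 0.00131, limma). It was also listed at 0 in all B and P libraries and in Y replicates 2 and 3, and stood at 14.2 TPM in Y replicate 1. The limma p-values pool the spread over periods, and a period listed at 0 throughout adds none to it.

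**Figure D3:**
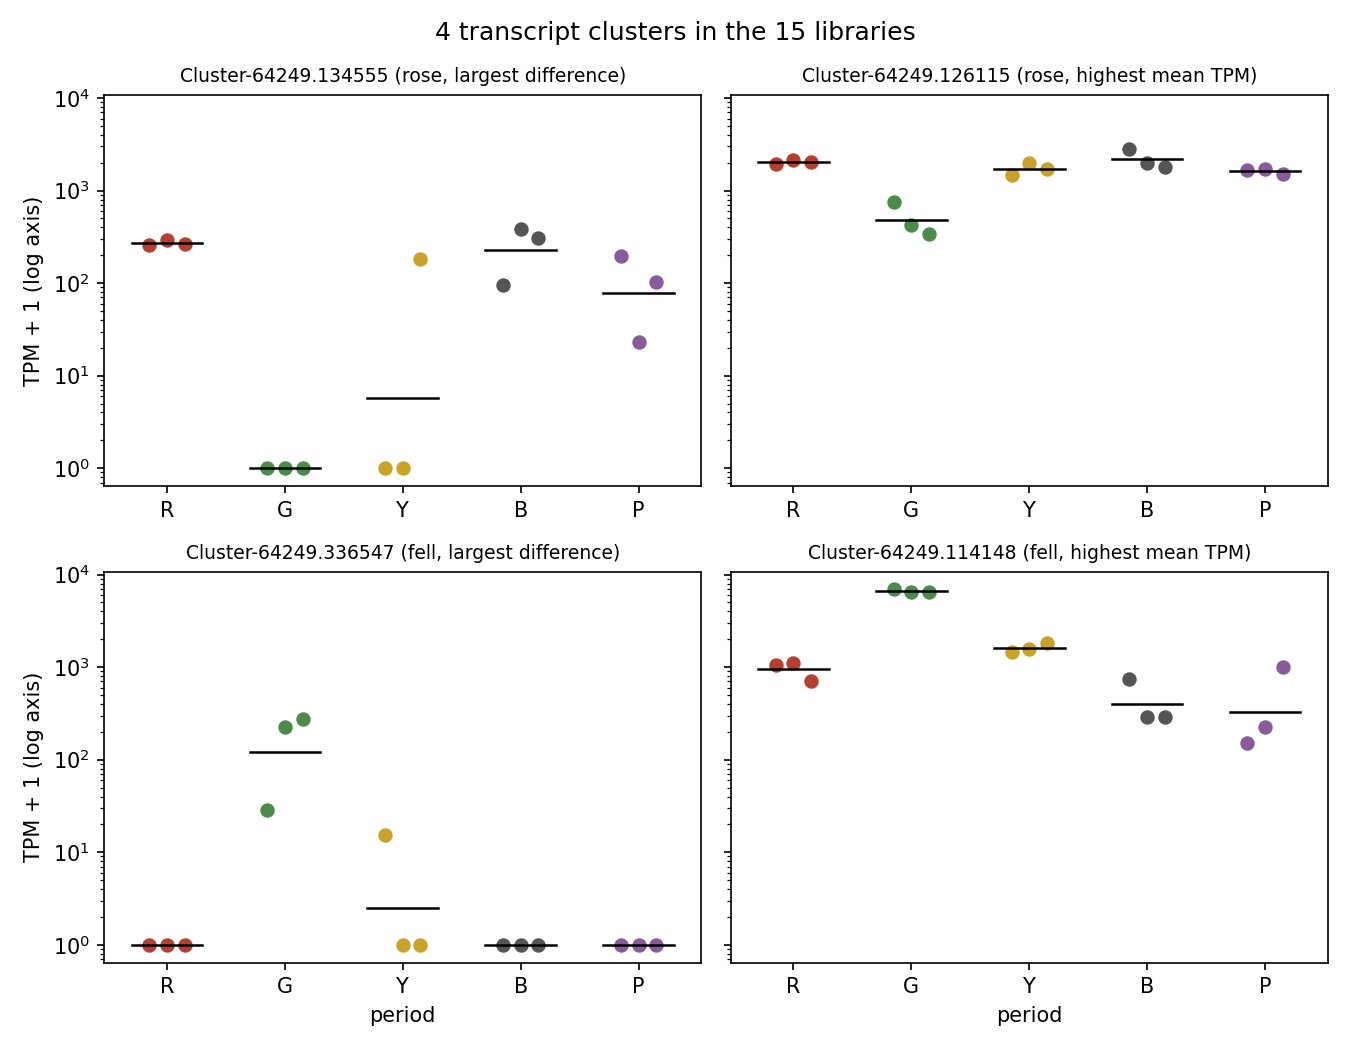
TPM + 1 on a log axis in each of the 15 libraries for the 4 named transcript clusters; points are libraries and lines the mean on the log2(TPM + 1) scale. Cluster-64249.114148 is between 6502 and 6920 TPM in the G libraries and at 1118 TPM or below in the R libraries.

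With all 6 libraries, presence in R with a listing at 0 in G was more frequent than the reverse. At 1 TPM or more in all 3 R libraries and listed at 0 in all 3 G libraries stood 1205 transcript clusters, of which 390 were called, or 32.4%. The reverse held for 531, of which 343 were called, or 64.6%. The median level where present was 3.61 TPM in R and 3.44 TPM in G, so most were rare. At 5 TPM or more the numbers were 205 and 69. Leaving out a library eases the rule for its period only, so presence in that period was also counted outside the 78605. Without G replicates 1, 2 and 3 the numbers were 1903, 2443 and 1925 for R and 2425, 2273 and 1912 for G. Without R replicates 1, 2 and 3 they were 2822, 2817 and 3221 for R and 902, 853 and 859 for G. The rule is then unlike for R and G, and no order is read from these numbers. G replicate 1 had the fewest of the 78605 above 0, and the part of this in the counts was not tested.

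For most transcript clusters of both kinds, the 3 Y libraries were neither all at 1 TPM or more nor all listed at 0. This remainder can hold Y libraries that are alike at a level under 1 TPM. Of the 1205 present in R, 213 were at 1 TPM or more in all 3 Y libraries, or 17.7%, 207 were listed at 0 in all 3, or 17.2%, and 785 were neither. Of the 531 present in G, 42 were at 1 TPM or more in all 3 Y libraries, or 7.91%, 188 were listed at 0 in all 3, or 35.4%, and 301 were neither.

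Over the 3171 changed transcript clusters, Y lay between G and R and closer to R. Its place was measured on the line from the G mean, set to 0, to the R mean, set to 1, on the log2(TPM + 1) scale. The median position was 0.704, with quartiles at 0.445 and 0.902. Y sat with R, at over 0.75, for 1414, or 44.6%. It sat between, from 0.25 to 0.75, for 1340, or 42.3%, and with G, at under 0.25, for 417, or 13.2%. Y went past R for 348, or 11.0%, and past G for 68, or 2.14%. The Y differences share libraries with the R against G difference, so these counts are a description. With limits at 0.333 and 0.667 the shares were 54.0% with R, 28.9% between and 17.1% with G.

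Y replicates gave like median positions but often differed for a single transcript cluster. Taken alone, Y replicates 1, 2 and 3 had median positions of 0.697, 0.683 and 0.721. All 3 Y libraries were nearer R than G for 1679 transcript clusters, or 52.9%, all 3 were nearer G for 526, or 16.6%, and they split for 966, or 30.5%. Of the 1340 whose Y mean sat between, 485 had all 3 Y libraries between the limits, or 36.2%, and 151 had at least 1 Y library with G and at least 1 with R, or 11.3%.

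Over all that were called, the median Y position was closer to R for falls than for rises, an order that did not hold in every setting. The median position was 0.808 for the 1291 that fell and 0.615 for the 1880 that rose. With R sat 58.9% of those that fell and 34.8% of those that rose, and with G sat 6.35% and 17.8%. In Y replicates 1, 2 and 3 the medians were 0.830, 0.815 and 0.815 for falls and 0.625, 0.604 and 0.665 for rises. The 3 libraries were placed on the same transcript clusters and the same G and R means, so their agreement is no separate support. Of the falls 583, and of the rises 622, had entered through a single period. A low Y level alone puts such a fall near R and such a rise near G. The gap was smaller without rare transcript clusters. Y and R were all listed at 0 for 162 that fell, which puts Y at exactly 1, and Y and G were all listed at 0 for 112 that rose, which puts Y at exactly 0. Where none of the 9 R, G and Y libraries was under 1 TPM, the medians were 0.725 for 521 that fell and 0.676 for 908 that rose. With the fit restricted to a mean of at least 10 TPM over the 15 libraries the order turned, to 0.661 for falls and 0.685 for rises. The difference between the directions was not tested.

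**Figure D4:**
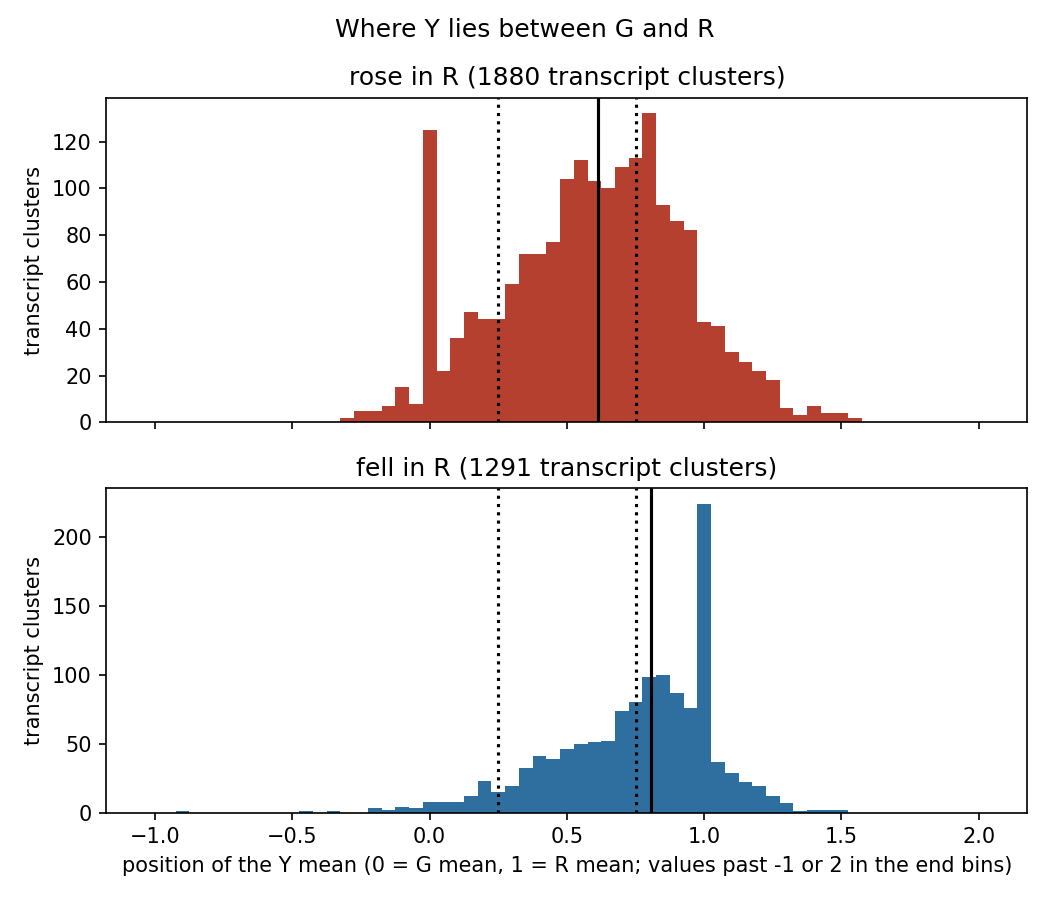
Position of the Y mean between the G mean (0) and the R mean (1) for the transcript clusters that rose (top) and fell (bottom) in R; dotted lines mark 0.25 and 0.75 and the solid line the median, 0.615 for rises and 0.808 for falls. The spikes at 0 (top) and 1 (bottom) hold the transcript clusters listed at 0 in Y and in the lower period.

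The median position of Y differed between classes of abundance, which also differ in how their transcript clusters entered. For those that rose, the median position was 0.741 at a mean of 100 TPM or more over the 6 libraries, 0.680 from 10 to 100 TPM, 0.555 from 1 to 10 TPM and 0.117 under 1 TPM. For those that fell it was 0.685, 0.753, 0.854 and 1.00 in the same classes. The low classes hold transcript clusters that entered through the period in which they are high, with the other period under 1 TPM in all 3 libraries. These were 39 of 39 rises and 94 of 94 falls under 1 TPM, 543 of 959 and 458 of 693 from 1 to 10 TPM, 39 of 733 and 31 of 438 from 10 to 100 TPM, and 1 of 149 and 0 of 66 at 100 TPM or more. A low Y level alone puts such a rise near 0 and such a fall near 1, so nothing is read from the low classes. By size, rises under 2 on the log2 scale had a median position of 0.615, those from 2 to 4 had 0.598 and those of 4 or more had 0.748. Falls had 0.804, 0.812 and 0.819.

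Called differences gave the same order with less resolution. The Y period differed from G alone for 1147 of the 3171, or 36.2%, and from R alone for 155, or 4.89%. It differed from both for 11, or 0.347%, and from neither for 1858, or 58.6% (limma, adjusted p under 0.05 in each contrast). Over the 78605 transcript clusters, 1.79% were called for Y against G and 0.238% for Y against R. Those that differed from neither had a median position of 0.554, and a p that misses the threshold does not place Y with either period. Of those that fell, 47.1% differed from G alone and 1.86% from R alone, and of those that rose, 28.7% and 6.97%. These shares include the 583 falls and 622 rises that had entered through a single period. A low Y level alone puts such a fall near R and such a rise near G, so the directions are not compared by these shares. Without Y replicates 1, 2 and 3 the share that differed from R alone was 2.89%, 2.66% and 2.92%, and the share that differed from both was 0.107%, 0.146% and 0.104%. The share that differed from G alone was 24.1% without Y replicate 3.

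Libraries that call a transcript cluster also set the ends of the line, which pulls them apart. Each R and G library was therefore placed among the transcript clusters called without it, a reading chosen after seeing the data. The limit of 1 TPM in at least 3 of the 6 libraries still counted the left-out library, which favours a place near its own end. R replicates 1, 2 and 3, each left out in turn, had median positions of 0.996, 1.00 and 0.958 and lay nearer the other R libraries than G for 95.1%, 96.1% and 94.7%. G replicates 1, 2 and 3 had 0.142, 0.0821 and 0.0523 and lay nearer the other G libraries than R for 80.2%, 85.1% and 90.0%. In the same sets the median position of the Y mean was 0.718 to 0.760. This was farther from the R end than that of any left-out R library, and farther from the G end than that of any left-out G library. The limit did not count the Y libraries, and its part in these distances was not tested.

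The B and P means also lay nearer R than G for most of the changed transcript clusters, but these libraries held less of the compared set. The 78605 held 72.5% to 80.8% of TPM in the B libraries and 59.9% to 68.6% in the P libraries, and P replicate 1 had 46674 of them above 0. A listing at 0 puts a fall at or past the R end. Of the 1291 falls, 583 had entered through G alone, and of the 1880 rises, 622 through R alone. A low level alone puts such a fall near R and such a rise near G. The part of low levels in these positions was not tested. Over the transcript clusters that fell, the B mean and the P mean both had a median position of 1.00 and were nearer R than G for 94.1% and 92.2%, against 80.9% for Y. Over those that rose, the B mean had a median of 0.883 and the P mean one of 0.590, against 0.615 for Y, and they were nearer R for 69.8%, 53.8% and 62.9%. B and P spread more widely: the B mean went past R for 39.3% of those that rose and the P mean for 23.0%, against 9.73% for Y.

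**Figure D5:**
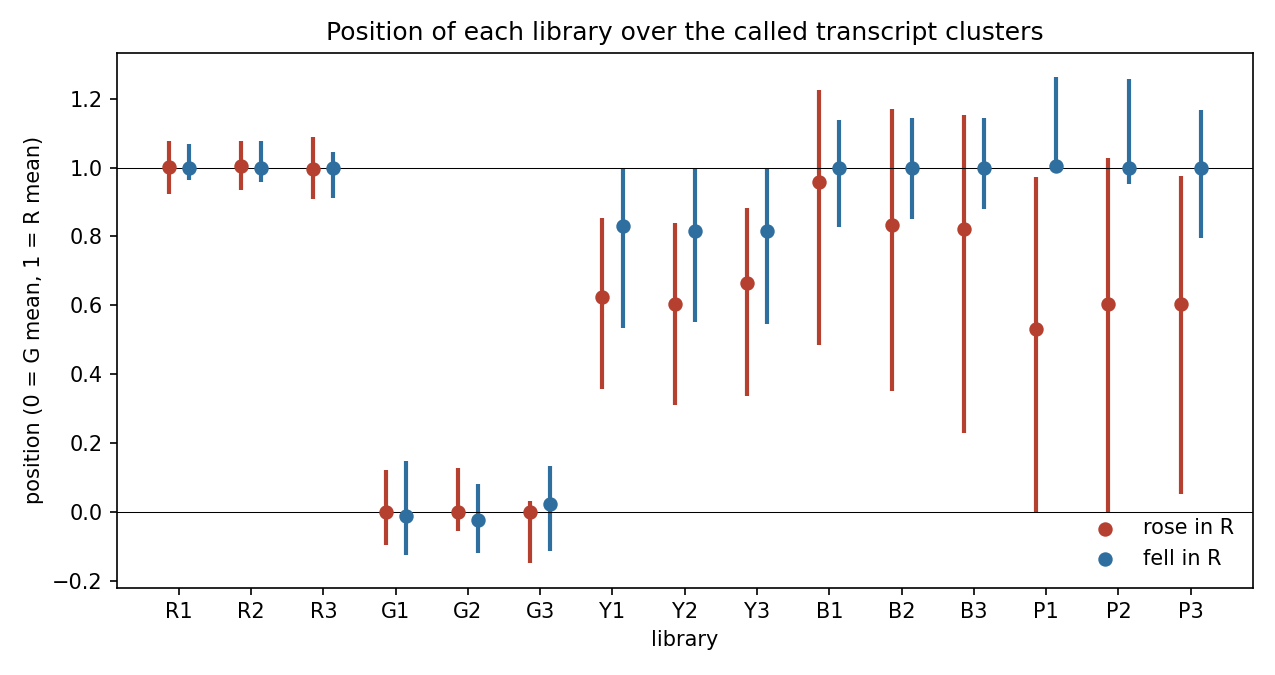
Position of each of the 15 libraries between the G mean (0) and the R mean (1), as the median (point) and interquartile range (bar) over the 1880 transcript clusters that rose (red) and the 1291 that fell (blue). The R and G libraries set the ends; the Y libraries stand at 0.604 to 0.665 for rises and 0.815 to 0.830 for falls.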

How the data were processed

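RNA of 15 pericarp libraries was sequenced, per the labels' protocols from cDNA made of fragmented mRNA with random primers. The authors deposited TPM values in a single table, as its name and its column sums of 999997 to 1000003 show. How reads were assembled, aligned and quantified is not given in the sources used here. All 15 columns matched a library by title, and no 2 libraries held identical values. Values were transformed to log2(TPM + 1), which understates changes of low values. With limma 3.58.1 in R 4.3.3, a linear model of the 5 period means with a variance trend was fitted to the 138664 features at 1 TPM or more in at least 3 of the 15 libraries, with 10 residual degrees of freedom, so that all periods share an estimate of the spread. The contrasts were R minus G, Y minus G and Y minus R, each with Benjamini-Hochberg adjustment over all features fitted and a call at an adjusted p under 0.05. Counts are over the 78605 features at 1 TPM or more in at least 3 of the 6 R and G libraries. Presence in a period with a library left out was also counted outside these. The fit was also run on simulated data, drawn with normal noise of the same spread in all periods. Such data lack the listings at 0 and the wider G spread of the deposited values, and no support is drawn from them. The 4 named transcript clusters are, in each direction, the one with the largest difference and the one with the highest mean, among those called, at a mean of at least 10 TPM in R or G and without overlap between the periods. Tables were handled with Python 3.11.15, pandas 2.3.3, NumPy 2.4.6 and SciPy 1.17.1. The comparison, the limits and the tests were chosen with earlier results of these data known. No sequence, gene name or genome position was used here. TPM keeps no read depth, so no counting interval is given. The alternatives were another pseudocount, other filters, median-ratio scaling over the 33508 features above 0 in all libraries, a block for the replicate number, a constant variance prior, library weights, fits on fewer libraries, and leaving out each library in turn.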

Additional observations from a re-analysis of the deposited data

How the results depend on the processing

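The number of transcript clusters called for R against G stayed within 1.5 times of 3171 in 8 of 11 alternatives other than leaving out a library. It was 1421 (930 higher, 491 lower) in a fit on the 6 R and G libraries alone, 4939 (2995 and 1944) when only the 78605 transcript clusters were fitted and adjusted over, and 1738 (1011 and 727) with no filter. Those called lower in R numbered 706 with a mean of at least 10 TPM and 825 with a pseudocount of 0.1. Over the 15 leave-outs the number called ran from 1617 to 3669, those higher from 922 to 2229 and those lower from 695 to 1440. Fewer libraries leave fewer degrees of freedom by construction, and fewer or more features change the adjustment. Higher calls made up 50.4% to 69.5% of the calls over the 26 fits. The 50.4%, 1531 against 1507, came from median-ratio scaling, the only fit that rescaled the libraries. The others kept the deposited scale and share many calls, so they are no separate support for an excess of rises.

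The median Y position ran from 0.672 to 0.735 over the alternatives and from 0.685 to 0.760 over the leave-outs. It was 0.672 on the 6 libraries, 0.681 with library weights, 0.680 with a mean of at least 10 TPM, 0.677 with the 78605 fitted alone, 0.735 with no filter and 0.729 with a pseudocount of 0.1. The share with R was 40.0%, 42.5%, 41.3%, 41.7%, 47.9% and 46.5% in the same order, and 54.0% with limits at 0.333 and 0.667; the leave-outs gave 43.1% to 51.5%. The share with G was 11.1%, 14.3%, 10.8%, 14.7%, 11.8% and 11.3% in that order, 17.1% with the other limits, 12.6% with median-ratio scaling and 14.2% without the P libraries; the leave-outs gave 10.9% to 14.2%. The share between was 48.9% on the 6 libraries, 47.9% with a mean of at least 10 TPM, 40.3% with no filter and 28.9% with the other limits; the leave-outs gave 37.2% to 42.8%. These shifts exceed the SD over the 3 Y libraries taken alone, and their cause was not tested.

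The share of calls in which Y differed from R alone was 9.34% with library weights, and the share in which it differed from both was 1.08% with library weights, 1.30% with a mean of at least 10 TPM, 0.0731% with no variance trend and 0.173% with no filter. Over the leave-outs Y differed from G alone in 24.1% to 48.6%, from R alone in 2.66% to 6.34%, from both in 0.104% to 0.508% and from neither in 45.6% to 72.9%. Presence in R with 0 in G numbered 205 at 5 TPM or more and 1903 to 3221 over the leave-outs; the reverse numbered 69, and 853 to 2425.

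The replicate numbers did not pair the samples: deviations of same-numbered R and G libraries correlated at -0.023, 0.00085 and -0.00089. With the replicate number as a block, 2564 were called, 1512 higher and 1052 lower, and 12.6% had Y with G. Depth is unknown throughout, which limits what a listing at 0 can show.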

Other observations

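Transcript clusters whose identifier lies outside the large group Cluster-64249 held 99 of the 1291 falls and 11 of the 1880 rises. The prefix holds 388342 of the 462117 in the table, and 77557 of the 78605 in the comparison. Of the other 1048, 110 were called for R against G, or 10.5%, with 11 higher and 99 lower in R. Within the prefix 3.95% were called, with 1869 higher and 1192 lower. Of the 99, 97 had reached 1 TPM in no R library and so entered through G alone, which fixes their direction. Entry through G alone also goes with a high share called, 583 of 1710 over the 78605. The shares called inside and outside the prefix are therefore not compared. As many as 80 were listed at 0 in all 3 R libraries, 62 in all 3 Y libraries, and 47 in all 12 libraries outside G. Each of the 99 was above 0 in every G library. Their summed level was low, from 0.0002% to 0.000606% of TPM in the R libraries and from 0.0288% to 0.0394% in the G libraries. All transcript clusters outside the prefix together held 1.68% to 1.99% of TPM in the R libraries, 3.10% to 8.57% in the G libraries, 1.53% to 2.82% in the Y libraries, 2.42% to 7.93% in the B libraries and 6.15% to 20.6% in the P libraries, so a high share was not confined to G. The 1048 in the comparison held 0.184% to 0.196% in the R libraries and 0.252% to 0.288% in the G libraries. What the prefix stands for is not given in the sources used here, and its part in the result was not tested.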
